A study of Mus musculus with 11 samples.

Results

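The 8 genes described here encode cytokines of the interleukin-6 (IL-6) family and colony-stimulating factors that stromal cells release, and the receptor chains and signal proteins that answer the former. They are the ligands Il6, Lif, Csf1 and Csf3, the receptor chains Il6st and Osmr, the transcription factor Stat3 and its feedback inhibitor Socs3. They were taken by symbol from a deposited table of 12430 genes. All 8 were in it, and all 8 were among the 10067 genes that passed the filter on low counts. The libraries came from fibroblasts of the thymus, the organ in which T cells mature, of young wild-type (WT) male mice. There were 4 untreated libraries, 3 taken 18 h and 4 taken 4 d after an intraperitoneal injection of dexamethasone, a synthetic glucocorticoid, at 200 ug per 10 g body weight. Untreated mice were of the same age and, per the labels, received no injection. Sample titles give 3 d for the later group while its other labels give 4 d, which is used here.

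Most IL-6 family cytokines bind a private receptor chain and signal through the shared chain gp130, the product of Il6st. Janus kinases bound to the receptors then phosphorylate STAT3, which enters the nucleus and switches on target genes, among them Socs3, whose product blocks the receptor complex. The colony-stimulating factors encoded by Csf1 and Csf3 use receptors of their own and drive the growth of macrophages and neutrophils. Glucocorticoids are known to lower Il6 in many cultured cells, and in the thymus they kill immature T cells and shrink the organ, which later regrows. The question these samples bear on is how fibroblasts respond while the thymus is injured and while it recovers.

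The promoters of the ligands Il6, Csf1 and Lif are shown because their transcripts were among those that differed at 18 h. The sequences are RefSeq's on GRCm38.p6, read in the direction of transcription and ending at the base before the first exon, which for Lif begins 11 bases before RefSeq's start in GENCODE. Of the 8 genes, 7 had an entry, and Csf3 is named only. The windows of Osmr and Socs3 reach into annotated exons and are not shown. Capitals mark matches, on either strand, to 6 motifs: the NF-kB site (GGGA and TTTCC around any 1 base), TGANTCA for AP-1, TTGCNNAA for C/EBP, TTCNNNGAA for STAT, TGACGTCA for CRE and AGAACA, which is one arm of the glucocorticoid receptor's site.
Il6 promoter, chr5:30012864-30013113, plus strand: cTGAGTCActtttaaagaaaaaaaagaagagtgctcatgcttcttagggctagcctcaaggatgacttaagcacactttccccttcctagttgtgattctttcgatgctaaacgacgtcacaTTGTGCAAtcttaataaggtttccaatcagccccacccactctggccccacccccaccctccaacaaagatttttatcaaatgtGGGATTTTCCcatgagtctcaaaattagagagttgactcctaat
Csf1 promoter, chr3:107760470-107760719, minus strand: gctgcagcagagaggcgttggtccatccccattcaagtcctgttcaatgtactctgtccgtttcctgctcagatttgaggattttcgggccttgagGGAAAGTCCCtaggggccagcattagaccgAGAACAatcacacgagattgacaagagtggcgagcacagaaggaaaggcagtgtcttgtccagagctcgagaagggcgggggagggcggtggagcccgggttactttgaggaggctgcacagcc
Lif promoter, chr11:4257318-4257556, plus strand: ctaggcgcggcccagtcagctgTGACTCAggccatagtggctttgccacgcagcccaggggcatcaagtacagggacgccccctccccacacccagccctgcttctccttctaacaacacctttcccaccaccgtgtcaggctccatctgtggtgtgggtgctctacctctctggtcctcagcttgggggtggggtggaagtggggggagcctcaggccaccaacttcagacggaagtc

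The Il6 window held an NF-kB match, GGGATTTTCC, from -44 to -35 relative to RefSeq's transcription start, a C/EBP match, TTGTGCAA, from -128 to -121, and an AP-1 match, TGAGTCA, from -249 to -243. The Csf1 window held an NF-kB match, GGAAAGTCCC, from -154 to -145 and the glucocorticoid arm AGAACA from -124 to -119. The Lif window held an AP-1 match, TGACTCA, from -228 to -222. None of the marked matches overlapped another. Of all 32851 mouse promoter windows of 250 bases, 0.356% held the NF-kB letters, 6.75% the AP-1, 9.56% the C/EBP, 7.02% the STAT, 1.55% the CRE and 16.1% the glucocorticoid arm. Of the 7 windows scanned, 2 held the NF-kB letters, 2 the AP-1, 1 the C/EBP, 1 the STAT, 0 the CRE and 2 the glucocorticoid arm. The STAT match was in the Socs3 window, and the second glucocorticoid arm in that of Stat3, both genes without a call. No STAT or CRE match was in the 3 windows shown, which says only that these letters are not in them. A match describes the sequence and is not a measured binding site.

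Levels are given as CPM, the deposited counts per 1000000 counts of the scaled library total. They compare 1 gene between libraries, not one gene with another. Total counts ran from 916281 to 3357113, and 18 h replicate 2 and 4 d replicate 4 were the shallowest, so counting noise was largest there. A count of 0 would allow up to 3 counts, or 0.996 to 3.72 CPM depending on the library, and these limits cover counting error only. Whether replicates were separate animals is not in the labels, so p-values measure only the spread among these libraries, part of which may be technical. Differences are log2 ratios with standard errors (SE) from edgeR's quasi-likelihood test over all 11 libraries, with p-values adjusted by the Benjamini-Hochberg method over the 10067 genes and a threshold of 0.05. The labels describe the sorted cells as CD45-, EpCAM+, CD34+, CD31- and PDGFRalpha+. Pdgfra averaged 106, 65.4 and 100 CPM and Cd34 929, 667 and 1086 CPM in untreated, 18 h and 4 d libraries, while Epcam averaged 3.13, 2.95 and 2.49 CPM, near the counting limit.

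After dexamethasone the ligands and the receptor chain Osmr were the genes of the group that differed. At 18 h, 5 of the 8 genes were higher than untreated, namely Il6, Lif, Csf1, Csf3 and Osmr, and 0 were lower, also at an unadjusted p below 0.05, with DESeq2 and with limma-voom. Of all genes tested, 7.83% were called higher in this comparison and 4.67% lower. At 4 d, 2 of the 8 were higher, Lif and Osmr, against 2.48% of all genes. From 18 h to 4 d, 1 of the 8 was lower, Csf3, against 3.81% of all genes. The median log2 difference of the 8 genes was 1.38 at 18 h, 1.24 at 4 d and -0.73 between the times, where the medians of all genes tested were -0.03, -0.04 and -0.00. Il6st, Stat3 and Socs3 did not pass in any of the 3 comparisons. Both comparisons with untreated mice use the same 4 untreated libraries, so their values are set side by side.

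**Figure D1:**
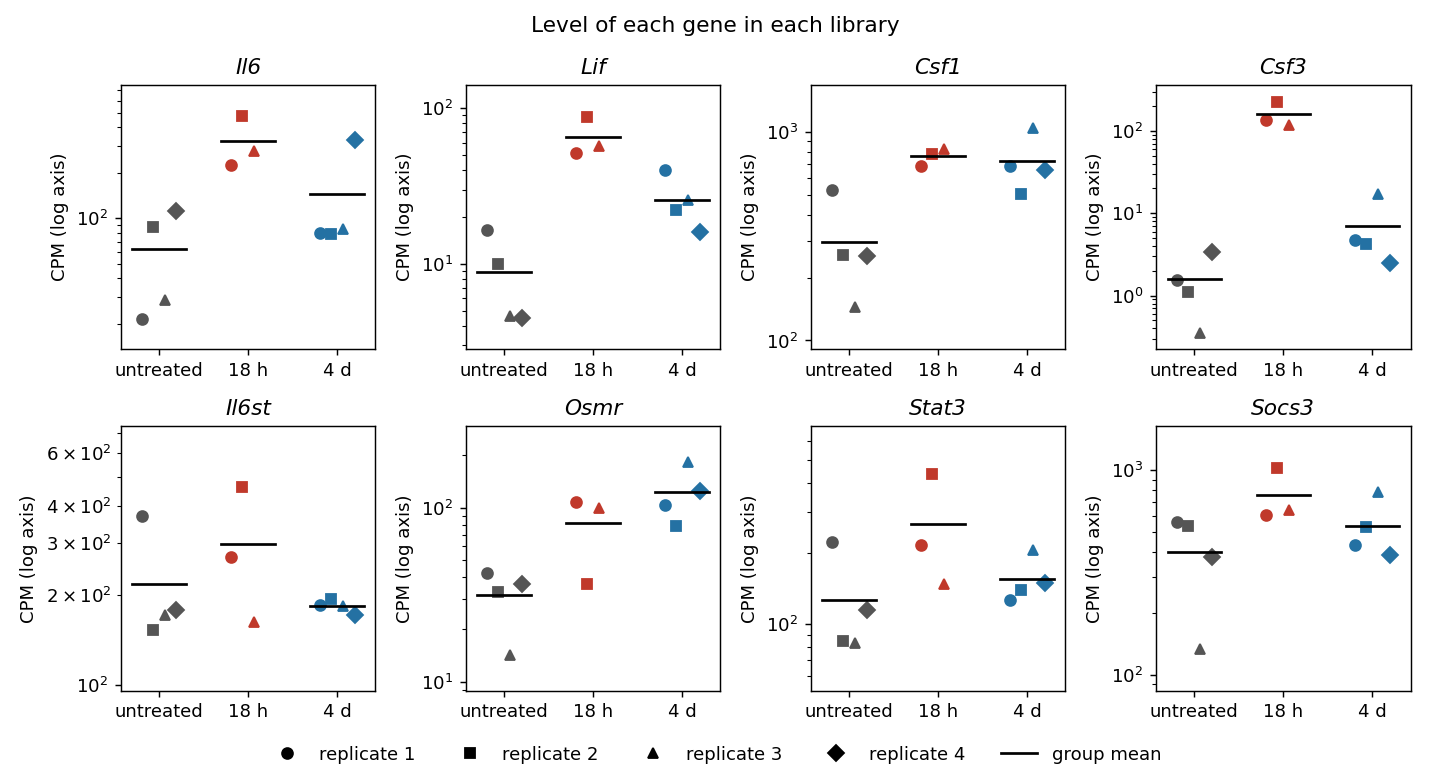
Level of each of the 8 genes in CPM on a log axis, 1 point per library and 1 marker shape per replicate number, with the group mean as a bar. Csf3 lies between 118 and 226 CPM in the 3 libraries at 18 h and at 16.9 CPM or less in the other libraries.

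Csf3, which encodes granulocyte colony-stimulating factor, the cytokine that drives neutrophil production, lies on chr11:98701263-98703629, plus strand. Its level was 1.55, 1.12, 0.355 and 3.39 CPM in untreated replicates 1 to 4, from 3, 2, 1 and 9 counts. It was 136, 226 and 118 CPM at 18 h, from 256, 187 and 249 counts, and 4.71, 4.23, 16.9 and 2.48 CPM at 4 d, from 13, 12, 51 and 2 counts. The 3 libraries at 18 h stood far above every other library, while those at 4 d overlapped the untreated ones. The log2 difference at 18 h was 6.56 ± 0.60 (SE, adjusted p = 1.6e-05), and the call held in all 11 fits that left out 1 library, with 7.32 without untreated replicate 4 as the highest. Because the untreated level is close to the counting limit, the size of the fold is loosely bounded. Summed counts of 692 and 15 gave a ratio of 88.1 with an exact 95% interval of 53 to 158 for counting error only. At 4 d the difference from untreated was 2.22 ± 0.64 and did not pass (adjusted p = 0.0748). Between 18 h and 4 d its log2 difference was -4.34 ± 0.51 (adjusted p = 0.00016), a call that also held without any 1 library and stood at -5.23 without 4 d replicate 3. The 4 d difference was 1.32 without that library and 2.97 without untreated replicate 4, and neither passed.

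Lif, on chr11:4257557-4272514, plus strand, encodes leukemia inhibitory factor, which signals through gp130 and the receptor Lifr. It was at 16.5, 10, 4.62 and 4.52 CPM in untreated replicates 1 to 4, at 52, 88.3 and 57 CPM at 18 h, and at 39.9, 22.2, 25.6 and 16.1 CPM at 4 d. All 18 h libraries were above all others, and at 4 d only replicate 4 came below the highest untreated library. Lif was higher by 2.90 ± 0.43 on the log2 scale at 18 h (SE, adjusted p = 0.00075), with no call lost when 1 library was left out. It was higher by 1.62 ± 0.41 at 4 d (adjusted p = 0.0431). The call at 4 d was less firm: it was lost without untreated replicate 2, 3 or 4, without 18 h replicate 1 or without any 1 of the 4 d libraries, at adjusted p from 0.0508 to 0.152. From 18 h to 4 d the levels did not overlap, as for Csf3 and for 10.5% of all genes tested in this direction, yet the difference of -1.28 ± 0.39 did not pass (adjusted p = 0.0734), except without untreated replicate 1 (adjusted p = 0.0365).

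Il6, on chr5:30013114-30019981, plus strand, encodes the founding cytokine of the family, which induces acute-phase proteins. The untreated libraries were at 21.7, 87.5, 28.8 and 111 CPM, a 5.12-fold range within 1 group. At 18 h Il6 was at 224, 476 and 279 CPM, and at 4 d at 80.4, 79, 85 and 331 CPM. The lowest 18 h library was above the highest untreated one. At 4 d replicates 1 to 3 lay close together inside the untreated range, and replicate 4, a shallow library, lay inside the 18 h range. Il6 was higher at 18 h by 2.39 ± 0.60 on the log2 scale (SE, adjusted p = 0.0196), and the call was lost without untreated replicate 3 (2.14, adjusted p = 0.0609) or 18 h replicate 2 (2.01, adjusted p = 0.0552). The difference at 4 d was 1.18 ± 0.56 (adjusted p = 0.282) and 0.39 without 4 d replicate 4, and neither passed. Between the times it was -1.21 ± 0.59 (adjusted p = 0.248), and -1.98 without 4 d replicate 4 (adjusted p = 0.0563).

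Csf1, on chr3:107741048-107760469, minus strand, encodes macrophage colony-stimulating factor, on which tissue macrophages depend. Its level was 524, 258, 145 and 253 CPM in untreated replicates 1 to 4. It was 684, 778 and 822 CPM at 18 h and 682, 505, 1046 and 656 CPM at 4 d. The 18 h libraries were above all untreated ones, and at 4 d only replicate 2 came below the highest untreated library, replicate 1. The difference was 1.37 ± 0.36 at 18 h (SE, adjusted p = 0.0232), and 1.29 ± 0.34 at 4 d, just short of the threshold at an adjusted p of 0.0519. The 18 h call was lost without untreated replicate 2, 3 or 4 or 18 h replicate 3, at adjusted p from 0.0516 to 0.0658. The 4 d difference passed without untreated replicate 1 (adjusted p = 0.00936) or 18 h replicate 2 (adjusted p = 0.041). From 18 h to 4 d Csf1 differed by -0.08 ± 0.36 (adjusted p = 0.926). For 5 of the 8 genes, the 4 ligands and Socs3, all 18 h libraries were above all untreated ones, which was so for 12.2% of all genes tested.

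Osmr encodes the receptor chain that pairs with gp130 to bind oncostatin M, and lies on chr15:6813577-6874969, minus strand. Its level was 42.3, 32.9, 14.2 and 36.6 CPM in untreated replicates 1 to 4, 108, 36.3 and 99.7 CPM at 18 h, and 104, 79, 184 and 124 CPM at 4 d. At 18 h replicates 1 and 3 were above every untreated library, while replicate 2 lay among them. At 4 d all 4 libraries were above the untreated ones, which was so for 8.08% of all genes tested and, of the 8 genes, for Osmr alone. Osmr was higher at 4 d by 1.97 ± 0.39 (SE, adjusted p = 0.0153), a call that held without any 1 library at adjusted p from 0.00515 to 0.0487. At 18 h it was higher by 1.40 ± 0.41 (adjusted p = 0.0384), a call lost without untreated replicate 2, 3 or 4, 18 h replicate 1 or 3, or 4 d replicate 4, at adjusted p from 0.0522 to 0.142. The difference between the times was 0.57 ± 0.41 (adjusted p = 0.438), which gives no call of a further change after 18 h.

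Il6st, on chr13:112464070-112510086, plus strand, encodes gp130, the chain that most receptors of the family share. It was at 370, 153, 171 and 178 CPM in untreated replicates 1 to 4, at 268, 462 and 163 CPM at 18 h, and at 185, 195, 184 and 172 CPM at 4 d. The groups overlapped throughout, and the 4 d libraries spanned only a 1.13-fold range. The differences were 0.44 ± 0.35 at 18 h (SE, adjusted p = 0.438) and -0.24 ± 0.32 at 4 d (adjusted p = 0.746). Both rested on 1 library: the first was -0.02 without 18 h replicate 2, and the second 0.14 without untreated replicate 1. Between the times the difference was -0.68 ± 0.35 (adjusted p = 0.271).

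Stat3, the transcription factor downstream of gp130, lies on chr11:100885098-100939540, minus strand. It was at 224, 84.8, 83.1 and 115 CPM in untreated replicates 1 to 4, at 217, 435 and 148 CPM at 18 h, and at 126, 139, 206 and 150 CPM at 4 d. At 18 h it lay above 3 of the 4 untreated libraries, with replicate 1 as the exception. The difference at 18 h was 1.07 ± 0.39 (SE, adjusted p = 0.0881), and it passed without untreated replicate 1 (1.49, adjusted p = 0.0146) or 18 h replicate 3 (1.35, adjusted p = 0.0408). At 4 d it was 0.30 ± 0.36 (adjusted p = 0.719), and between the times -0.77 ± 0.39 (adjusted p = 0.269). Stat3 and Stat5a overlap by 72 bases at their 3′ ends on opposite strands, from 100885098 to 100885169 on chromosome 11. Since the strand setting of the counting is not known here, reads of the pair may not be separable. Stat5a differed by 1.20 ± 0.42 at 18 h (adjusted p = 0.0777).

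Socs3, the feedback inhibitor of gp130 signalling, lies on chr11:117966079-117970047, minus strand. It was at 560, 532, 134 and 376 CPM in untreated replicates 1 to 4, at 606, 1025 and 639 CPM at 18 h, and at 432, 529, 786 and 383 CPM at 4 d. The 18 h libraries were all above the untreated ones, yet untreated replicate 3 lay far below its group and the difference of 0.92 ± 0.40 did not pass (SE, adjusted p = 0.151). At 4 d it was 0.41 ± 0.38 (adjusted p = 0.605), and between the times -0.50 ± 0.40 (adjusted p = 0.492). Il6st, Stat3 and Socs3 thus gave no call in either direction, which does not show that they stayed the same.

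**Figure D2:**
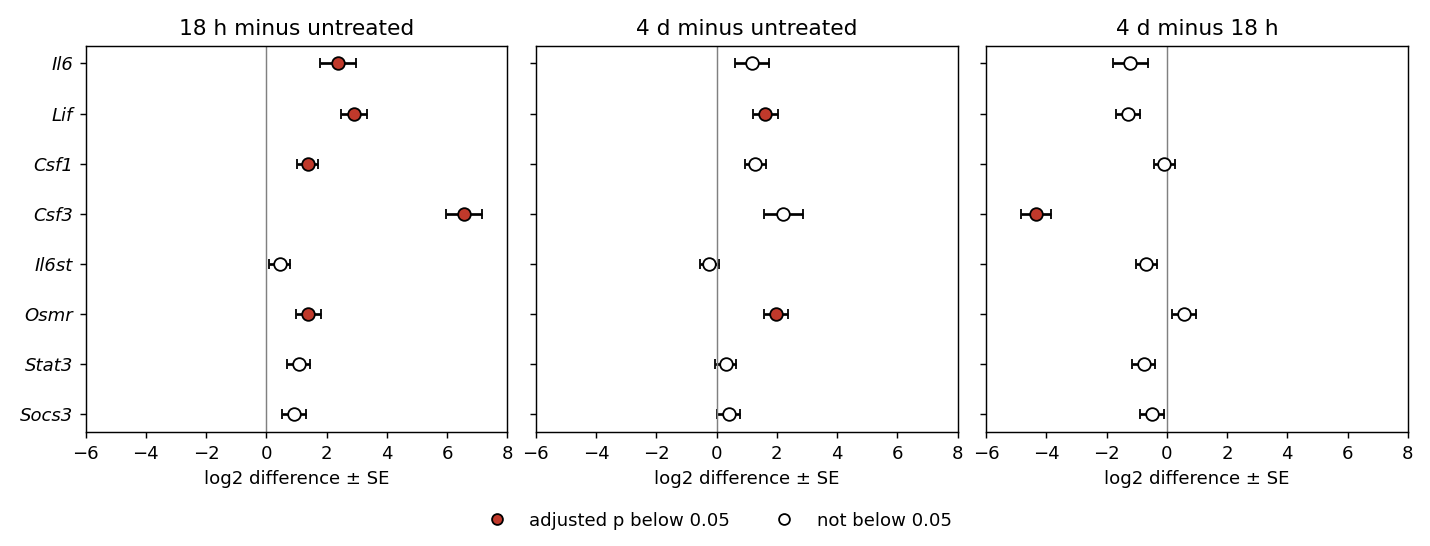
Log2 difference of each of the 8 genes in the 3 comparisons, with the SE as a bar; filled points passed an adjusted p of 0.05. The 5 filled points at 18 h are Il6, Lif, Csf1, Csf3 and Osmr, the 2 at 4 d are Lif and Osmr, and Csf3 at -4.34 is the 1 between the times.

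In the authors' deposited table, with the sign turned so that positive means higher after dexamethasone, 5 of the 8 genes had an adjusted p below 0.05 at 18 h, 4 at 4 d and 2 between the times. In the authors' deposited table Csf1 at 4 d stood at 1.29 (adjusted p = 0.00754). Csf3 at 4 d stood at 2.21 (adjusted p = 0.0171) in the authors' deposited table, and Lif between the times at -1.31 (adjusted p = 0.0394). These are the 3 results that passed there and not in the quasi-likelihood test.

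Within a group, the library with the highest level was not the same for all 8 genes. At 18 h, replicate 2 was the highest library for 6 of them, Il6, Lif, Csf3, Il6st, Stat3 and Socs3, and the lowest for Osmr. Among untreated libraries, replicate 1 was highest for 6, Lif, Csf1, Il6st, Osmr, Stat3 and Socs3, and lowest for Il6. Untreated replicate 3 was lowest for 5, Csf1, Csf3, Osmr, Stat3 and Socs3. Without untreated replicate 3, the number of the 8 genes called at 18 h was 2, and it was 3 without untreated replicate 2 or 4.

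**Figure D3:**
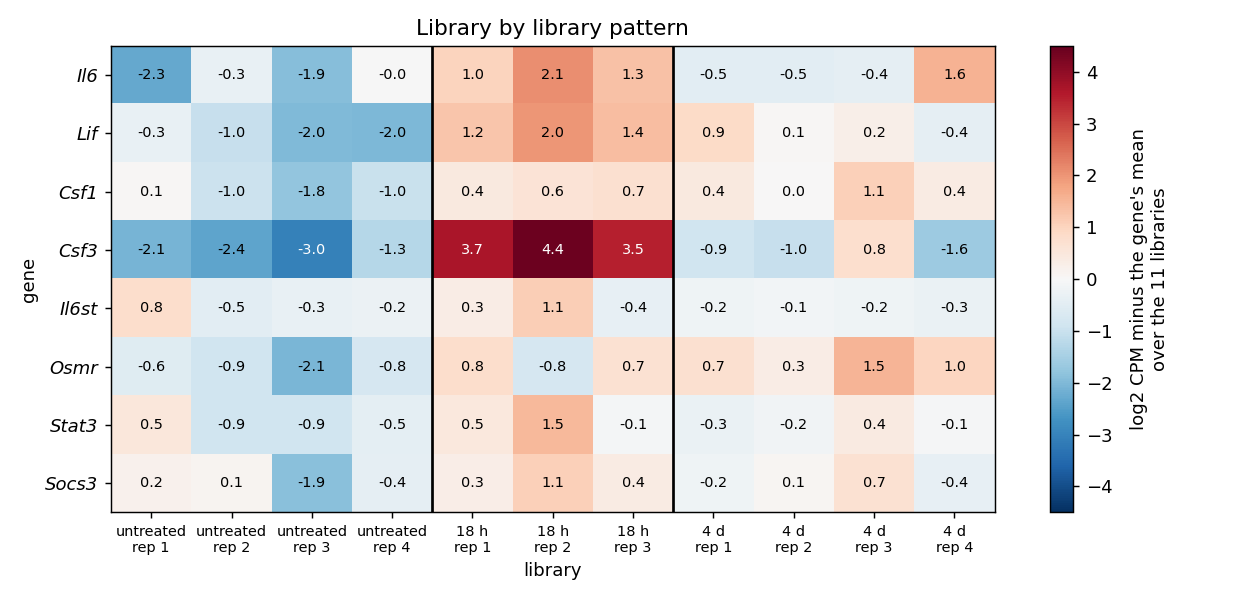
Log2 CPM of each gene in each library minus that gene's mean over the 11 libraries, from blue (below) to red (above), with the groups parted by black lines. The row of Csf3 is red in the 3 libraries at 18 h, the row of Osmr is red in all 4 libraries at 4 d, and 18 h replicate 2 stands apart from the other 18 h libraries for Osmr.

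Marker sums of pericytes and smooth muscle and of granulocytes and mast cells were above all untreated libraries at 18 h. Fibroblast sums at 18 h were below all untreated libraries. Sums of the other cell types overlapped the untreated range at 18 h. For endothelial and macrophage markers the overlap came from 18 h replicate 2 alone, at 213 and 206 CPM. Replicates 1 and 3 were above all untreated libraries, at 704 and 473 CPM for endothelial and 497 and 556 CPM for macrophage markers. Summed over 8 fibroblast genes, the level was 16227 to 24981 CPM in untreated libraries, 5753 to 14554 at 18 h and 18234 to 29398 at 4 d. The 10 endothelial markers summed to 205 to 323, 213 to 704 and 109 to 254 CPM, and the 13 macrophage markers in the table to 86.6 to 217, 206 to 556 and 81.9 to 197 CPM. The 10 markers of pericytes and smooth muscle summed to 133 to 300, 402 to 1083 and 118 to 184 CPM, and the 6 of granulocytes and mast cells to 1.78 to 4.15, 9.5 to 126 and 1.81 to 4.98 CPM. The 9 T cell markers in the table summed to 64.1 CPM or less, the 6 epithelial markers to 234 to 619, 400 to 585 and 69.7 to 712 CPM, and the 6 mesothelial markers to 2820 to 4578, 2081 to 4064 and 537 to 4238 CPM. Among the markers in the table, Retnlg was at 0 counts in untreated libraries, Rag1 at 18 h and Csf3r at 4 d. Pecam1, which encodes CD31, averaged 2.12, 59.4 and 7.51 CPM, and Ptprc, which encodes CD45, 2.53, 12.1 and 2.03 CPM. Both were called higher at 18 h, Pecam1 by 4.73 ± 0.75 (SE, adjusted p = 0.0013) and Ptprc by 2.34 ± 0.68 (adjusted p = 0.037). Among the 18 h libraries, Il6, Lif and Csf3 were highest in replicate 2, Csf1 in replicate 3 and Osmr in replicate 1. Osmr was lowest in replicate 2. Of the 18 h libraries, replicate 2 was the shallowest, at 924731 counts. It had their lowest fibroblast, endothelial and macrophage sums, at 5753, 213 and 206 CPM. The same library had the highest mesothelial sum of the 18 h libraries, at 4064 CPM, and its pericyte and granulocyte sums, 539 and 50.8 CPM, lay between those of the others. The part of these other cells in the levels of the 8 genes, and of the pathway genes described next, was not tested, and in bulk samples fewer cells of a type and less RNA per cell cannot be told apart.

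**Figure D4:**
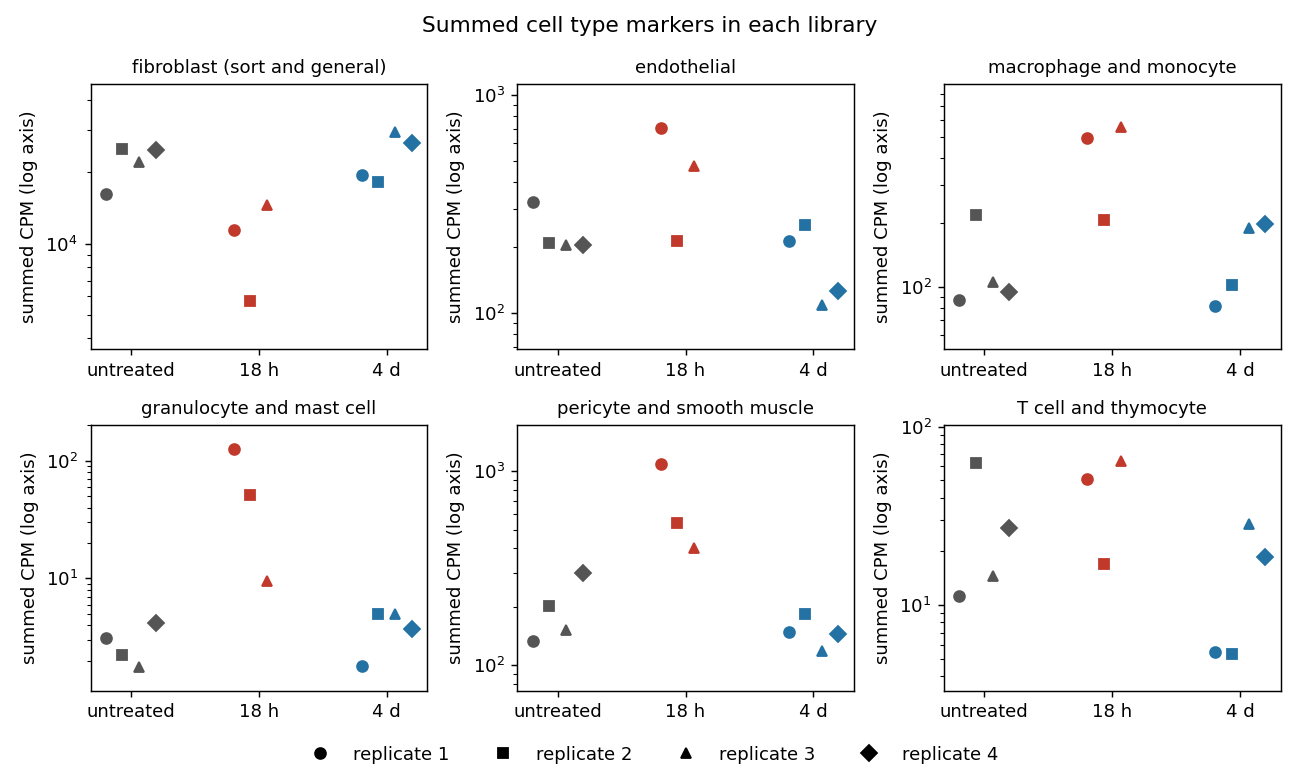
Summed CPM of the marker genes of 6 cell types in each library, on log axes, with 1 marker shape per replicate number. Fibroblast sums are lower at 18 h, at 5753 to 14554 CPM, than in the other libraries, and pericyte sums are higher, at 402 to 1083 CPM.

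The rest of the pathway was read from 8 gene lists that hold 124 genes outside the 8, of which 96 were tested. At 18 h, 32 of the 96 were higher and 0 lower, against 7.83% and 4.67% of all genes, with a median log2 difference of 0.81. The count was 18 to 39 over the fits that left out 1 library. At 4 d, 13 were higher and 1 lower, against 2.48% and 0.824%, and between the times 0 were higher and 12 lower, against 1.7% and 3.81%. The medians were 0.48 and -0.22. Beside the counts of 0 from edgeR, 2 genes were lower at 18 h and 3 higher between the times at an unadjusted p below 0.05, 1 and 1 with DESeq2 and 0 and 0 with limma-voom.

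Among the other ligands of the family, 1 of 4 tested was higher at 18 h, against 7.83% of all genes. Il11, which encodes interleukin-11, differed at 18 h by 2.01 ± 0.53 (SE, adjusted p = 0.0252), a call lost without untreated replicate 2 (2.04), 3 (1.71) or 4 (1.86) or 18 h replicate 3 (1.51). Osm, the ligand of the Osmr chain, had 1 count in all untreated libraries together, 42 at 18 h and 3 at 4 d, and was not tested. The 5 tested receptor chains outside the 8 genes gave 0 calls with edgeR at 18 h, where 2 had an unadjusted p below 0.05, 1 passed with DESeq2 and 0 with limma-voom, and 1 passed without untreated replicate 1 or 18 h replicate 3. At 4 d they also gave 0 calls, with 1 at an unadjusted p below 0.05 0 with either other tool, and 1 passing without untreated replicate 1. Il11ra1, the private receptor of interleukin-11, was at 292 ± 63.6 CPM (SD, n = 4) untreated, 296 ± 63.7 (n = 3) at 18 h and 325 ± 94.7 (n = 4) at 4 d.

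Of 8 tested genes for other colony-stimulating factors and receptors, Csf2 alone was called at 18 h, where 7.83% of all genes were called higher. It encodes the factor that acts on granulocytes and macrophages, and was higher by 2.90 ± 0.65 (SE, adjusted p = 0.0111) in a call that held without any 1 library and stood at 4.28 without untreated replicate 1. Csf1r, the receptor of macrophage colony-stimulating factor, was at 52.9 ± 12.5 (SD, n = 4), 29.9 ± 7.52 (n = 3) and 39.7 ± 29 CPM (n = 4), with no call. Csf3r, the receptor of the Csf3 product, had 1, 11 and 0 counts in the groups and was not tested.

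Of 9 Janus kinases and STATs, 4 were higher at 18 h, against 7.83% of all genes. From 18 h to 4 d 3 were lower, against 3.81% of all genes. At 4 d 0 were higher than untreated, where 2 had an unadjusted p below 0.05, 2 passed with DESeq2 and 1 with limma-voom. Stat2, which carries interferon signals, rose by 2.26 ± 0.44 (SE, adjusted p = 0.00492) and between the times differed by -2.61 ± 0.45 (adjusted p = 0.00335). Jak3, the kinase of the common gamma chain, rose by 2.37 ± 0.46 (adjusted p = 0.00501), and these calls held without any 1 library. The count of 4 was 2 without untreated replicate 2 or 3 or 18 h replicate 1 or 2. Among 15 feedback inhibitors, 3 were higher at 18 h, against 7.83% of all genes. They were Ptpn6 (1.88 ± 0.36, adjusted p = 0.00394), Socs1 (1.40 ± 0.30, adjusted p = 0.00755) and Ptpn1 (1.09 ± 0.27, adjusted p = 0.0198), of which the last was lost without untreated replicate 3 (0.93) or 18 h replicate 1 (0.94).

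Of 31 known STAT3 target genes, 13 were higher and 0 lower at 18 h, against 7.83% and 4.67% of all genes. Their median log2 difference was 1.03. The count was 8 without untreated replicate 3, 18 h replicate 1 or 18 h replicate 3. Those with the smallest adjusted p were Saa3, an acute-phase apolipoprotein, at 7.19 ± 0.35 (SE, adjusted p = 5.5e-08), and Lcn2, which binds bacterial iron carriers, at 6.99 ± 0.45 (adjusted p = 6.6e-07). Lrg1, an acute-phase glycoprotein with 5 counts in all untreated libraries together, and Timp1, a metalloprotease inhibitor, were the other two, at 7.80 ± 0.77 and 3.97 ± 0.35. All 4 calls held without any 1 library. Several genes of this list answer to NF-kB as well, so the list does not measure STAT3 activity.

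At 4 d, 9 STAT3 targets were higher and 1 lower, against 2.48% and 0.824% of all genes. Timp1 was higher by 2.48 ± 0.32 (SE, adjusted p = 0.00244), Hp, which encodes the hemoglobin-binding protein haptoglobin, by 2.93 ± 0.55 (adjusted p = 0.012) and Il4ra, the interleukin-4 receptor chain, by 2.13 ± 0.41 (adjusted p = 0.0132), each without loss of the call when 1 library was left out. The count of 9 was 4 or 5 without untreated replicate 2, 3 or 4 or 4 d replicate 3. Ccnd1, a cell cycle gene, was the lower one, and that call was lost without untreated replicate 2 or 4 or 4 d replicate 2 or 3. Between 18 h and 4 d, 7 of these genes fell, against 3.81% of all genes. Among the 7 were Saa3 (-6.10 ± 0.34), Lrg1 (-5.69 ± 0.64) and Lcn2 (-5.41 ± 0.42), calls that held without any 1 library.

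Of 12 tested genes on the list of inducers of Il6 and Csf3 and their receptors, 8 were higher at 18 h, against 7.83% of all genes. The list also holds genes that oppose induction, such as Il1rn, so its count does not measure induction. Several genes of this list and of those above are also leukocyte genes. Ptprc, the CD45 gene of leukocytes, was itself higher at 18 h by 2.34 ± 0.68 (adjusted p = 0.037), and granulocyte marker sums were 9.5 to 126 CPM against 1.78 to 4.15 untreated. Il1b, the cytokine interleukin-1 beta, rose from 10 summed counts untreated to 276, by 5.50 ± 1.13 (SE, adjusted p = 0.00645), and Il1rn, which encodes its antagonist, from 2 to 90, by 5.94 ± 0.85 (adjusted p = 0.00059). The ratio of the summed counts of Il1rn was 85.9, with an exact 95% interval of 23.1 to 721 for counting error only. Myd88, the adaptor of interleukin-1 and Toll-like receptors, rose by 1.71 ± 0.27 (adjusted p = 0.00143). The calls of Il1b, Il1rn and Myd88 held without any 1 library, with Il1b at 6.61 without untreated replicate 4 and 4.63 without 18 h replicate 1, while the count of 8 was 5, 3 and 4 without untreated replicates 2, 3 and 4. At 4 d, 2 of the 12 were higher, against 2.48% of all genes, among them Myd88 (1.43 ± 0.26, adjusted p = 0.0118). Only 1 was called when untreated replicate 2, 3 or 4, replicate 1 of 18 h or replicate 3 or 4 of 4 d was left out. Of 16 factors that act on the Il6 promoter or mRNA, to raise or to lower Il6, 3 were higher at 18 h, against 7.83% of all genes. The 3 were Relb, Nfkbia and Zc3h12a, called in 8, 10 and 3 of the 11 fits that left out 1 library. The count of 3 was 6 without untreated replicate 1, 1 without untreated replicate 4 and 0 without 18 h replicate 3.

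**Figure D5:**
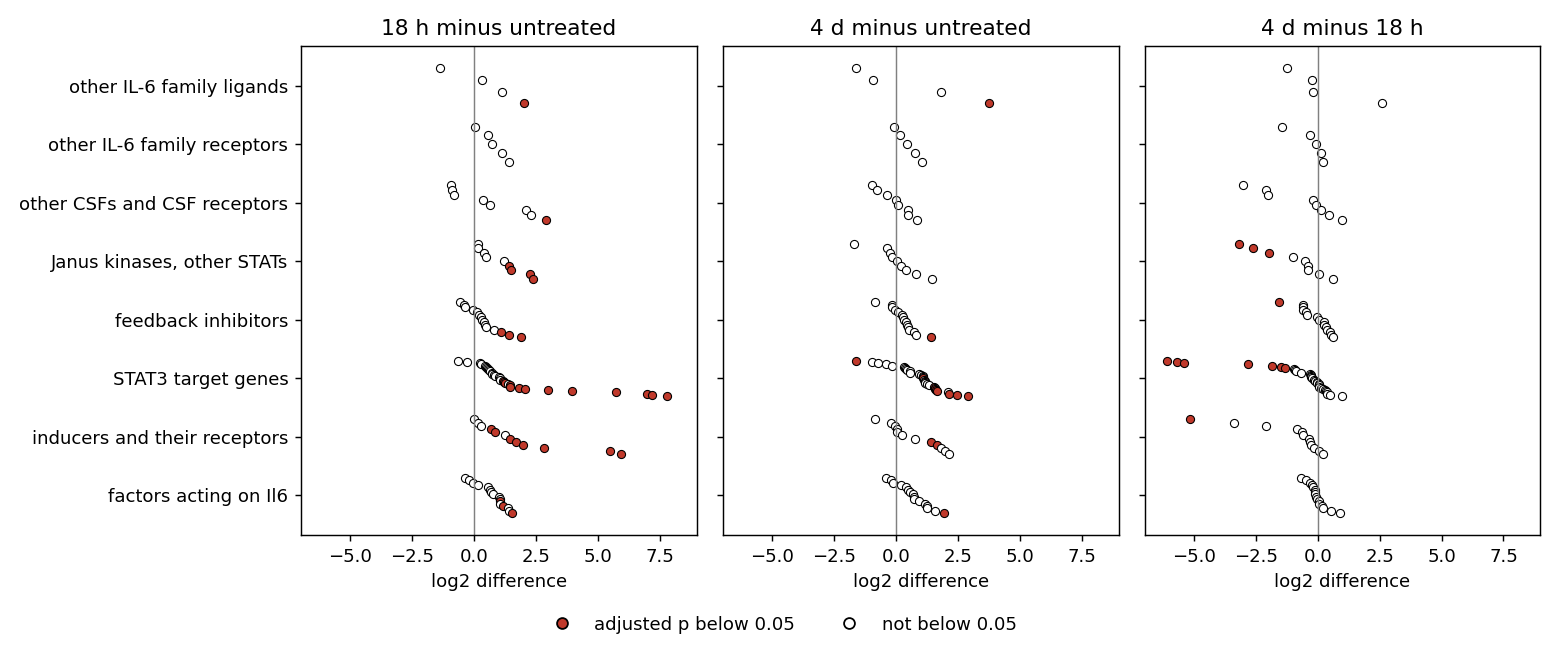
Log2 difference of each tested gene of the 8 pathway lists in the 3 comparisons; filled points passed an adjusted p of 0.05. A gene shared by lists is drawn in each. At 18 h the filled points, which stand for 32 genes, lie to the right of 0, and between the times the 12 filled points lie to the left.

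For each gene with a call, the 3 closest genes over the 11 libraries were found after each gene's own mean was subtracted. Closeness was the root-mean-square difference of log2 CPM. Genes with predicted, clone-based or pseudogene symbols were left out of the ranking and of the medians. The closest genes lie below the median by construction, so it is given for scale only. Csf3 was closest to Serpina3n (0.682), Saa3 (0.83) and Lcn2 (0.936), where the median over the ranked genes was 2.6. All 3 are acute-phase genes. Csf1 was closest to Jak2 (0.206), Pim1 (0.26) and Nfkbie (0.26), against a median of 0.982, and Osmr to Nfkb1 (0.249), Zpr1 (0.319) and Uap1 (0.321), against 1.14. Lif was closest to the chemokine gene Cxcl2 (0.464), Slc39a14 (0.488) and Col4a1 (0.501), against 1.38, and Il6 to Jak3 (0.582), Ptgs2 (0.592) and Iigp1 (0.612), against 1.42. None of the 15 was 1 of the 8 genes, and these distances describe these libraries only.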

How the data were processed

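RNA of sorted thymic fibroblasts was made into libraries with MARS-seq, a 3′ end method, per the labels' protocols. Per the submitters' processing notes, the build was mm10 and the tools were DESeq2, HTSeq, STAR 2.5.2b, cutadapt and bcl2fastq. Annotation, strand setting and any collapsing of molecular identifiers were not given in the sources used here. Raw counts per gene symbol, as the authors deposited them, entered every test. The authors also deposited a normalized signal and log2 values, neither used in tests, and log2 fold changes with adjusted p-values, which are quoted only as the authors' deposited table. With columns matched to samples, 0 were left over.

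Counts were fitted with edgeR 4.0.16 in R 4.3.3 (filterByExpr with a minimum count of 10, TMM scaling, robust quasi-likelihood fit of 10067 genes, group as the only term). The procedure was tested on simulated counts in which 200 genes were changed. Over the 3 comparisons it recovered 74.5% to 78.4% of 4-fold changes, but only 12.1% to 16.7% of 2-fold changes. In that setting most 2-fold changes were missed, so a gene that did not pass may still have changed. At 18 h more genes were called in the data (788 higher and 470 lower) than were changed in the simulation, so recovery may differ there. CPM is counts per 1000000 of the scaled total, and log2 CPM has a prior count of 2. Alternatives were other filters and scalings, library totals, DESeq2 1.42.0, limma-voom (limma 3.58.1), 2-group fits, non-robust estimation, a replicate block, and leaving out each library or the 2 shallow ones. Replicate numbers were the titles' (the untreated descriptions read 1, 3, 4 and 5). The 15 pairs of replicates differed by more than sampling noise (chi-square per degree of freedom at least 4.79). The 8 genes, lists and markers were chosen with earlier results of these data known. Beyond the 8, the rule for named genes took up to 4 called genes per list and comparison with the smallest adjusted p, from which those named are preferably calls that held without any 1 library, plus 14 defining genes, 5 sort genes and the 3 nearest patterns. Ccnd1 was named outside it, after its value was seen. The results of 2 genes that the rule named are not reported here, although both stayed in the fits and counts. Gene spans are GENCODE M21's on GRCm38, all protein-coding.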

Additional observations from a re-analysis of the deposited data

Results flagged for a closer look

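In groups of 4 libraries, a library was picked out where its gap to the nearest other exceeded Dixon's 95% critical share of the group's whole range. Of 16 such groups tested, untreated and 4 d for each of the 8 genes, 3 were picked out. The nominal rate of about 1 in 20 holds for independent normal values. CPM values of genes from the same libraries need not be such, so that rate is only a rough guide. Il6 in 4 d replicate 4 was at 331 CPM, against 79 to 85 CPM in the other 4 d libraries. Csf3 in 4 d replicate 3 was at 16.9 CPM, from 51 counts, against 2.48 to 4.71 CPM in the others. Il6st in untreated replicate 1 was at 370 CPM, against 153 to 178 CPM in the others. The difference of Csf3 between the times, -4.34 on the log2 scale, is also the test of whether its changes from untreated at 18 h and at 4 d differ, and it passed.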

How the results depend on the processing

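In the fits that left out 1 library, 236 results on the 8 genes kept direction and side of the threshold, 20 lost the call, 5 gained one and 3 reversed; under the other alternatives 221 kept both, 9 lost the call, 8 gained one and 1 reversed. Il6st reversed to -0.02 at 18 h without 18 h replicate 2 or without both shallow libraries and to 0.14 at 4 d without untreated replicate 1, and Csf1 between the times to 0.06 without 4 d replicate 2. Log2 differences over the fits without 1 library ran from 2.01 to 2.83 for Il6, 1.14 to 1.80 for Csf1, 1.14 to 1.73 for Osmr, -0.02 to 0.82 for Il6st and 0.52 to 1.49 for Stat3 at 18 h, from 1.33 to 2.11 for Lif, 1.06 to 1.72 for Csf1 and -0.38 to 0.14 for Il6st at 4 d, and from -1.57 to -1.02 for Lif and -0.30 to 0.06 for Csf1 between the times. Calls among the 8 genes ran from 2 to 6 at 18 h, 1 to 3 at 4 d and 1 to 2 lower between the times. With library totals Osmr at 18 h was 1.19 and Lif at 4 d 1.47, neither passing, 1 of the 8 genes was called at 4 d, and 902 genes were lower at 18 h and 162 at 4 d, with 1 and 3 of the pathway lists. Osmr at 18 h did not pass with limma-voom (1.42) or when only the compared groups were fitted (1.40). Csf1 at 4 d passed with a filter of 20 counts (1.29), DESeq2 size factors (1.30), the DESeq2 Wald test (1.30), limma-voom (1.39) and only the compared groups (1.30). The DESeq2 Wald test also passed Csf3 at 4 d (2.20) and Lif between the times (-1.31), calling 4 and 2 of the 8 genes. Without both shallow libraries Csf1 at 18 h was 1.36 and did not pass, 3 pathway genes were lower at 4 d and 110 of all genes were higher at 4 d than at 18 h.

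All genes called higher at 18 h, main count 788, numbered 463 to 963 without 1 library, and lower, main count 470, 171 to 567. At 4 d they were 86 to 440 higher (main 250) and 27 to 177 lower (main 83), with the DESeq2 Wald test 481 and 209, and with only the compared groups 394 and 144. Between the times they were 45 to 343 higher (main 171) and 196 to 448 lower (main 384), 343 higher with the DESeq2 Wald test, and 102 and 253 with only the compared groups. Pathway genes without 1 library numbered 18 to 39 higher and 0 to 1 lower at 18 h, 6 to 23 and 0 to 3 at 4 d, and 0 to 1 and 8 to 14 between the times. The DESeq2 Wald test gave 1 lower at 18 h, 24 higher and 4 lower at 4 d and 1 higher between the times, and only the compared groups gave 3 lower at 4 d.

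Same-numbered libraries of different groups correlated at -0.344 to 0.193 in their deviations from the group means, 2 of 10 pairs over 0.1, and 0 of 11 libraries correlated best with its own number, so the numbers were not taken to pair the libraries. With a replicate block, Csf1 (1.39) and Osmr (1.32) at 18 h and Lif (1.62) and Osmr (1.92) at 4 d did not pass, and Il6 between the times did (-1.80). The block fit called 3, 0 and 2 of the 8 genes, 17 and 2 pathway genes higher at 18 h and 4 d, and 443 higher and 205 lower of all genes at 18 h. In that fit 46 and 14 genes were called at 4 d, and 74 and 231 from 18 h to 4 d. The cause of these changes was not tested. Depth limits what can be said of Csf3 outside 18 h, where 1 to 51 counts stand behind each value.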
